A study of Mus musculus with 2 samples.

Results

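The naive-like CD4 T cells of mouse blood were examined, 2274 of 9415 cells that passed the quality filters. They were selected on raw counts of unique molecular identifiers (UMIs, each standing for 1 captured RNA molecule) and numbered 1117 of 4190 cells in the mutant and 1157 of 5225 in the wildtype library. A cell was taken when it had at least 800 UMIs, at least 200 genes and at most 10% mitochondrial UMIs, 2 or more UMIs of the T cell receptor complex genes Cd3d, Cd3e and Cd3g together, and 0 of Cd8a and Cd8b1. It could hold at most 1 UMI of the B cell genes Cd79a, Cd79b and Ms4a1, at most 2 of Cxcr3, Cxcr6, Il2rb, Cd160, Klrc1, Gzmm and Xcl1, and at most 1 of the activation genes Rora, Ikzf2, Itgb1, Nrp1, Maf, Ctla4, Tnfrsf4, Icos and S100a4. Cd4 itself was not part of the choice. The mutant mice had the Mvk genotype MvkV377I/del91 and the controls were wildtype. All were female C57Bl/6 animals 10 weeks old. Blood of 3 mice was pooled per genotype. After a Ficoll gradient and lysis of erythrocytes, cells negative for DAPI and for Ter119, an antigen of the red cell lineage, were sorted, and 1 10x 3' library was made per genotype. Genotype, pool of mice and library therefore cannot be told apart, and no test between the genotypes was possible. Every interval given for a share, level or ratio is an exact 95% interval that covers counting error only, and a ratio is always mutant over wildtype with its interval after it.

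Naive CD4 T cells are helper T cells that have left the thymus and have not met their antigen. They recirculate between blood and lymph nodes under the control of the homing receptor Ccr7 and the egress receptor S1pr1, and are held at rest by transcription factors such as Klf2, Foxo1, Tcf7 and Lef1. Mvk encodes mevalonate kinase, which acts early on the way to sterols and to the isoprenoid tails that anchor small GTPases such as Rhoa and Rac2 in membranes.

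The libraries held 14513059 and 15385199 UMIs, and 4190 and 5225 cells passed where 2000 were targeted. The summed UMIs of the naive-like CD4 T cells came to 2227895 for the mutant and 2400671 for the wildtype, with medians of 1947 and 2034 UMIs and 854 and 873 genes per cell. Levels are given as CPM, counts per 1000000 UMIs of such a sum. Ribosomal protein genes made up 36.6% and 38.1% of the UMIs and mitochondrial genes 3.00% and 3.14%. Haemoglobin genes took 1.95% of mutant and 0.245% of wildtype UMIs. They were spread thinly over most mutant cells, of which 85.1% had 3 or more such UMIs, against 2.07% of wildtype cells, and 11 mutant and 1 wildtype cells with 20 or more haemoglobin UMIs stood apart, the 10 highest cells of each library holding 86.8% and 90.6% of these UMIs. RNA free in the suspension was read from droplets of at most 20 UMIs, and the class II genes set its share in these cells at up to 5.44% and 5.71%. The 2 libraries shared 28 cell barcodes among all cells, and 1 barcode was a naive-like CD4 T cell in both. NK cells were 3.20% of mutant and 12% of wildtype cells, and free RNA held the NK marker list at 1570.3 and 5031 CPM.

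The label was checked on genes that the choice had not used. Cd4, the helper co-receptor (ENSMUSG00000023274; chr6:124864692-124888221, minus strand, GRCm38) had a UMI in 21.1% of mutant and 24.5% of wildtype naive-like CD4 T cells, against 0.90% and 2.32% of the CD8 naive-like T cells (the same limits, with 2 or more UMIs of Cd8a and Cd8b1 in place of 0; 667 and 907 cells) and 0.925% and 0.698% of B cells. Cd40lg, the ligand through which helper cells license B cells and dendritic cells (ENSMUSG00000031132; chrX:57212143-57224042, plus strand), was seen in 11.3% and 12.5%. Its shares were 0.90% and 0.551% in CD8 naive-like cells and 0.103% and 0.233% in B cells. Both genes were thus well above the level that free RNA gave in cells lacking them. A UMI of at least 1 of Cd4, Cd40lg, Zbtb7b and Trat1 was present in 34.8% of mutant and 37.3% of wildtype cells, compared with 3.00% and 3.75% of CD8 naive-like cells. Most cells of the group thus had no UMI of these helper genes and were placed by the absence of Cd8 UMIs. CD8-negative T cells with 2 or more activation gene UMIs had a UMI of at least 1 of the 4 genes in 29.8% of mutant and 37.1% of wildtype cells. These genes thus mark CD8-negative T cells and do not set the naive-like ones apart from the activated.

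Among the shared naive markers, Lef1 was seen in 72% and 71.5% of the mutant and wildtype cells and in 72.9% and 71.7% of CD8 naive-like cells, while Tcf7 was seen in 48.7% and 51.3%, against 51.3% and 51.2%. By share of cells these markers did not set the group apart from CD8 naive-like cells, which were deeper, with medians of 2432 and 2557 UMIs. By level, Lef1 was somewhat higher, at 730 and 741 CPM against 562 and 552 CPM in CD8 naive-like cells. Tcf7 likewise stood at 360 and 361 CPM against 283 and 290 CPM. Igfbp4, a gene of naive CD4 T cells, was seen in 39.8% and 42.6%, against 27.7% and 29.3%. Cd3d, a gene of the choice itself and so no check of the label, was seen in 88.9% and 90.3%. Ccr7 was present in 72.4% and 79%. Foxp3, the regulatory T cell factor, had 2 UMIs over the mutant cells and was seen in 0 of 1157 wildtype cells, which allows a share of wildtype cells with a UMI of up to 0.318% (exact binomial bound). Genes of CD8 T cells were lower but present. Nkg7 had a UMI in 14.9% and 29% of the cells, against 79.8% and 82.7% of CD8 naive-like cells and 9.25% and 20.6% of B cells, which should lack it and had median depths of 1576 and 1566 UMIs. Ctsw was seen in 9.22% and 12.7%, against 37.8% and 40.7% of CD8 naive-like and 2.57% and 4.66% of B cells. Ccl5 (38.3% and 68.5%) and Gzma (10.4% and 33%) were close to the shares found in B cells (38.1% and 66.5%, and 7.91% and 32.2%). Their levels in B cells were 423 and 1021 CPM for Ccl5 and 133 and 487 CPM for Gzma, against 919 and 1442 CPM and 152 and 509 CPM in the naive-like CD4 T cells, and neither gene is read as expressed there from its share of cells. CD8 T cells in which no Cd8 UMI was captured were not told apart from helper cells.

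**Figure D1:**
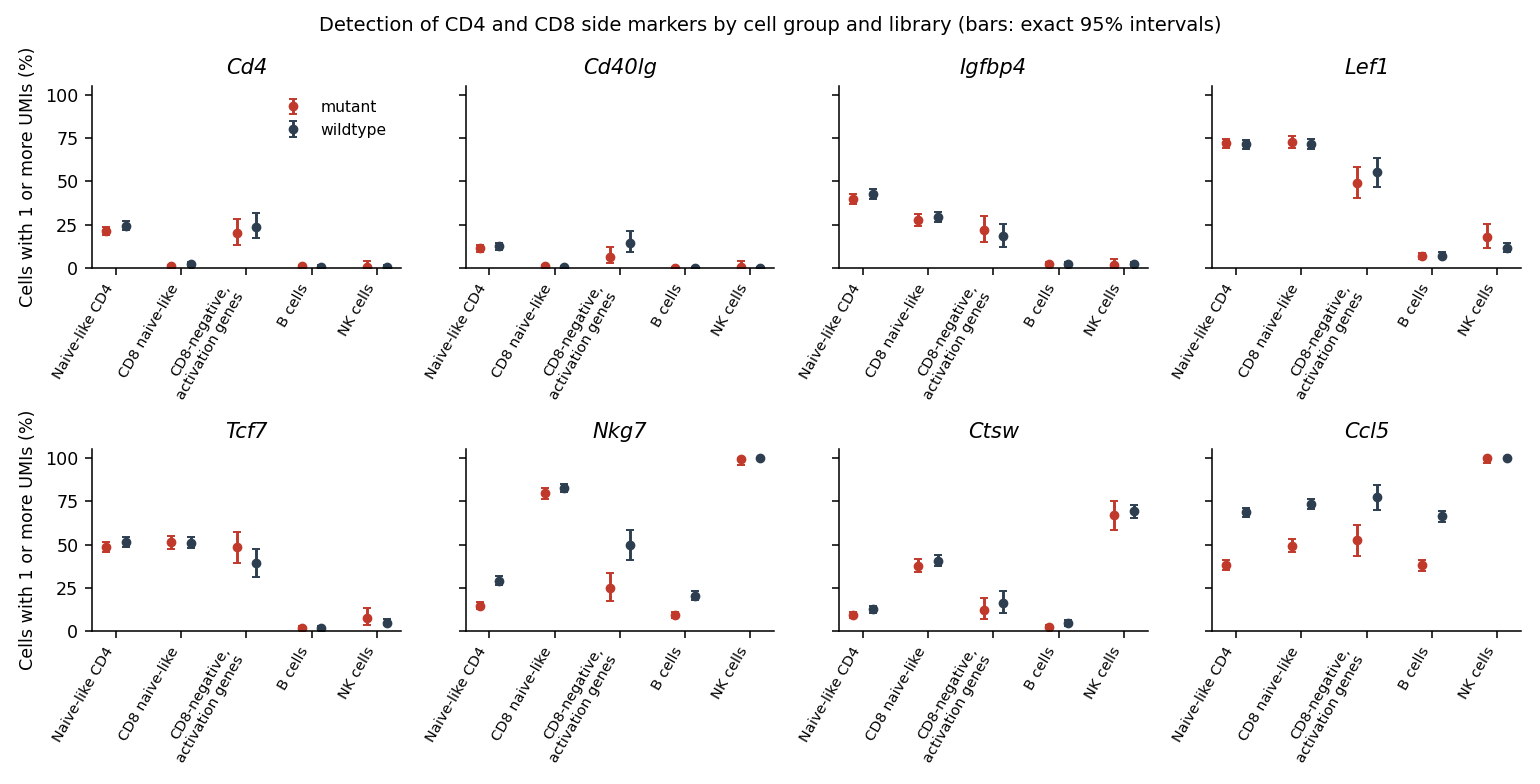
Share of cells with at least 1 UMI (y axis, percent, exact 95% intervals) of 8 genes in 5 cell groups (x axis) of the mutant (red) and wildtype (dark blue) library. Cd4 and Cd40lg stand above the other groups only in the CD8-negative T cells, while Ccl5 in B cells is as frequent as in naive-like CD4 T cells.

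At the edge of the Cd8 limit, cells with 1 Cd8 UMI (172 mutant and 232 wildtype, left out) had Cd4 at 75.1 and 69.4 CPM, compared with 121 and 138 CPM in the cells taken. At the Cd3 limit, cells with 1 Cd3 UMI (116 and 166, left out) had Lef1 at 369 and 255 CPM, and cells with 2 (142 and 132, taken) 669 and 713 CPM. At the activation limit, cells with 2 UMIs (62 and 67, left out) had Igfbp4 at 316 and 190.5 CPM, and cells with 1 (212 and 289, taken) 316 and 417 CPM. These values describe the choice itself.

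As a share of all cells, the naive-like CD4 T cells made up 26.7% of mutant (25.3 to 28) and 22.1% of wildtype (21 to 23.3) cells, a mutant over wildtype ratio of 1.2 (1.11 to 1.31). The NK share of the mutant library was lower, which moves every other share. Without NK cells the ratio was 1.09 (1.01 to 1.19). Of cells with 2 or more Cd3 UMIs they were 45.4% and 38.3%, a ratio of 1.19 (1.09 to 1.29). Set against the CD8 naive-like T cells alone, they were 62.6% of mutant (60.3 to 64.9) and 56.1% of wildtype (53.9 to 58.2) cells of both kinds (ratio 1.12, 1.03 to 1.21). Set against CD8-negative T cells with 2 or more activation gene UMIs (124 and 143 cells), they were 90% and 89% (ratio 1.01, 0.931 to 1.1), so the balance of naive-like and activated CD8-negative cells did not differ beyond counting error. When every cell was first thinned to 800 UMIs, the share of all cells was 23% and 21.3% and its ratio 1.08 (0.986 to 1.17). The interval of this ratio spanned 1. Thinning also changed which cells the rule took, 962 mutant and 1115 wildtype cells against 1117 and 1157 before. The ratio after thinning thus describes a different set of cells, and the part of depth in the share was not tested. With 1 or more Cd4 UMIs required the ratio was 1.04, and with both gene sets of the last limits held at 0 it was 1.35. The limits use counts per cell, and whether they act alike on both libraries was not tested.

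**Figure D2:**
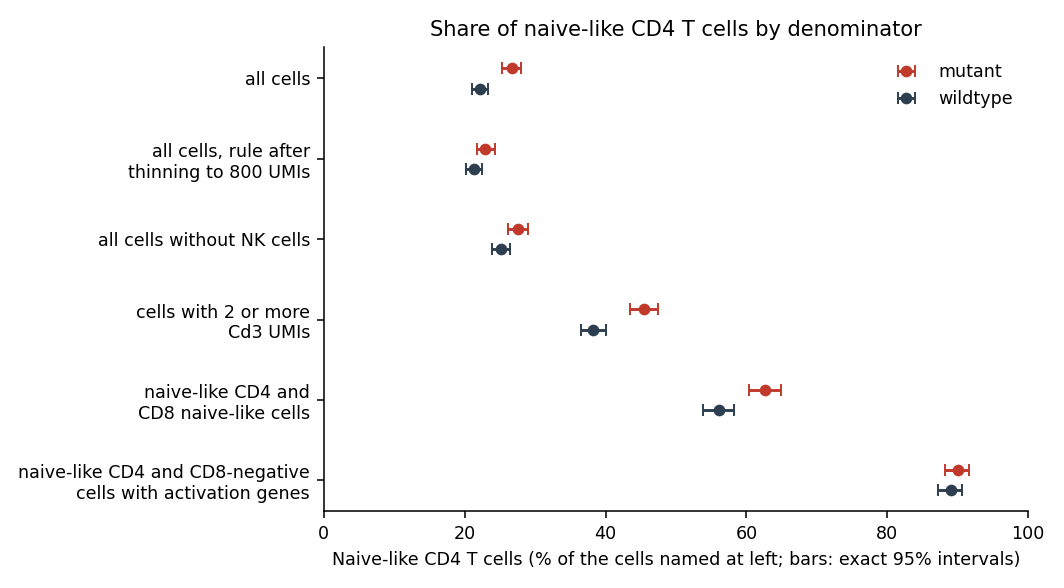
Naive-like CD4 T cells as a percent (x axis, exact 95% intervals) of 6 sets of cells (y axis) in the mutant (red) and wildtype (blue) library. The intervals are apart for all cells (26.7% and 22.1%) and overlap after thinning (23.0% and 21.3%) and beside CD8-negative cells with activation genes (90.0% and 89.0%).

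Against the CD8 naive-like T cells, the naive-like CD4 T cells were marked by genes of the helper lineage. The comparison was fitted with edgeR's quasi-likelihood test on UMIs summed per library and cell group, 6 sums of 3 T cell groups in 2 libraries, with the library as a term. Values are given for the mutant and then the wildtype library. The groups had been divided by Cd8a and Cd8b1 UMIs of the same cells, so the calls describe how this division reads on other genes and are no independent test. Of 8636 genes outside the rule, 130 (1.51%) were called 2-fold or more higher and 116 (1.34%) lower at an edgeR adjusted p under 0.05, and DESeq2 called 34 and 40. The helper lineage list gave 4 higher of 10, with Cd4 at 121 and 138 CPM against 3.54 and 9.51 CPM (log2 difference 4.14). Cd40lg stood at 65.1 and 71.2 CPM against 3.54 and 2.07 (4.58). Zbtb7b, which encodes ThPOK, the factor that commits thymocytes to the helper lineage, stood at 18.9 and 17.5 CPM against 1.77 and 2.48 (2.94), and the T cell receptor adaptor Trat1 at 19.3 and 15.4 CPM against 3.54 and 2.48 (2.45). Myb, on the same list, was lower (-1.35). The 4 higher genes were so in both libraries. Zbtb7b was not particular to helper cells, at 17.4 and 21.1 CPM in NK cells (5 and 24 UMIs) and 12.4 and 9.97 CPM in B cells.

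Of the genes named by size, Pdlim4, a LIM domain protein gene, was at 81.7 and 87.9 CPM against 7.67 and 6.2 CPM (log2 difference 3.56), and St8sia6, a sialyltransferase gene, at 57 and 58.7 CPM against 4.72 and 6.2 (3.29). Itgb3, an integrin chain, was at 24.2 and 13.3 CPM against 1.77 and 2.07 (3.09). Myo10 and Nav2 rest on 14 to 25 UMIs per library in the naive-like CD4 T cells and on 3 or fewer in the CD8 naive-like ones. Ccdc88a had 3 and 8 UMIs against 0 and 0, too few for a fold. Ly6c1 and Ly6c2, neighbouring genes of closely related GPI-anchored proteins, went opposite ways: Ly6c1 was at 138 and 122 CPM against 17.1 and 12 CPM (3.11) and Ly6c2 at 51.2 and 100.4 CPM against 439.8 and 447 (-2.61). How reads shared by the pair were counted is not given in the sources used here. Izumo1r, the folate receptor 4 gene known from helper and regulatory T cells, was higher at 107 and 102 CPM against 20.7 and 26.5 CPM (2.06).

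Of the 10 lower genes named by size, Itgae, the integrin chain CD103 known from CD8 T cells, was at 2.24 and 1.67 CPM against 34.2 and 26 CPM (log2 difference -3.96), and Ccr9, the gut homing receptor, at 4.49 and 5.0 CPM against 37.8 and 40.9 (-3.10). Lcn4 (-3.58), Bend4 (-3.44), Adgrg5 (-3.48), Slc6a19 (-4.06), Trpm1 (-3.95), Dyrk4 (-3.31), Reck (-3.22) and Ccdc102a (-3.16) rest on 1 to 20 UMIs per library in the naive-like CD4 T cells. Of 7 CD8 markers outside the rule, 4 were lower: Ctsw, Klrd1, Ly6c2 and Nkg7. Of the naive and quiescence list, 1 of 20 was called (Igfbp4, 348 and 397 CPM against 155 and 162 CPM, 1.17), and no T cell receptor signalling (0 of 25), Gimap (0 of 8), sterol (0 of 24) or small GTPase gene (0 of 32) was. The medians of these lists lay between 0.01 and 0.26, beside -0.00 over all genes tested. Among further lists, the interferon-stimulated genes Ly6a (1.64) and Slfn5 (1.35) were the 2 of 32 called higher, Rgs2 (1.04) the 1 higher and Dusp2 (-1.05) the 1 lower of 26 immediate early genes, and the death genes Bid (-1.02) and Pmaip1 (-1.67) the 2 lower of 16 survival and death genes. All 6 red cell markers and both neutrophil markers tested, S100a8 and S100a9, were also called higher, with most of their UMIs in few cells.

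Against CD8-negative T cells with activation genes, the naive-like CD4 T cells held more RNA of naive genes. Of 8636 genes, 39 (0.452%) were called higher and 298 (3.45%) lower with edgeR, again between groups set by counts of the same cells, and DESeq2 called 12 and 181. Of the naive and quiescence list 4 of 20 were higher, and none lower: Igfbp4 at 348 and 397 CPM against 175 and 124 CPM (log2 difference 1.52), Lef1 at 730.3 and 741 CPM against 373 and 448 (1.03), Ccr7 at 866 and 1013 CPM against 472 and 579 (1.03) and Bach2 at 58.4 and 57.5 CPM against 24 and 30.3 (1.27). Dapl1 was at 488 and 480.3 CPM against 277 and 191 (1.25) and Txnip at 490.1 and 372 CPM against 267 and 167 (1.19), 2 genes singled out after their values were seen. Il4ra (1.22) and Ifngr2 (1.19), receptor chains for interleukin 4 and interferon gamma, were the 2 higher of 24 cytokine receptor genes. Lower were 4 of 6 activation and regulatory markers, among them Lgals1 at 282 and 332 CPM against 822 and 1151 (-1.49), Cd44 at 18 and 17.9 CPM against 82.2 and 33.3 (-1.46) and S100a6 (-3.33), and 6 of 26 immediate early genes, with Fos at 104 and 139 CPM against 298 and 273 (-1.03) and Zfp36 at a log2 difference of -1.51. Of 10 helper lineage genes 0 were called higher and 1, Myb, lower. No sterol (0 of 24) or T cell receptor signalling gene (0 of 25) was called, and of 32 small GTPase and prenylation genes Rab8b (-1.16) and Ralb (-1.79) were lower.

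The comparison group was not made of T cell RNA alone. Cd74, of class II presentation, stood there at 5624 and 2212 CPM (244 and 169.5 CPM in the naive-like CD4 T cells), all 9 monocyte markers were called lower in the naive-like cells, and Lyz2 stood at 4939 and 1609 CPM. The 10 lower genes named by size were Tnip3, Skint3, Clec4a2, Cd209a, Trf, Cd209d, Batf3, Mt1, Ltb4r1 and Cd302, of which Cd209a, Clec4a2 and Batf3 are known from dendritic cells. Cd209a had 3 and 2 UMIs in the naive-like CD4 T cells against 73 and 17 in the 124 and 143 comparison cells. Their part in the calls was not tested. Of the 10 higher genes named by size, Arhgap29, Ccdc34, Ccdc77, Ddx26b, Slc7a6 and Tti2 had 0 UMIs in the comparison cells of both libraries and 14 to 29 in the naive-like cells, too few for a fold, and Bbs9, Jmy and Otud4 had 1 or 2 UMIs in at least 1 comparison sum. S100a8, the last, rests on 1 wildtype cell.

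Between the genotypes, most genes of the naive-like CD4 T cells stood at like levels. Of 4370 genes with 100 or more UMIs in both libraries together, 54 (1.24%) were at least 1.5-fold higher and 48 (1.10%) at least 1.5-fold lower in the mutant cells, the median log2 ratio was -0.01, and the 5th and 95th percentiles of the ratios were 0.766 and 1.28. Among the 533 genes with 1000 or more UMIs, these percentiles were 0.872 and 1.13, and 4 were higher and 4 lower by this fold. The 4 higher ones were haemoglobin genes and the 4 lower ones Gzma, AW112010, Ccl5 and Nkg7. No replicate library checks these differences.

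**Figure D3:**
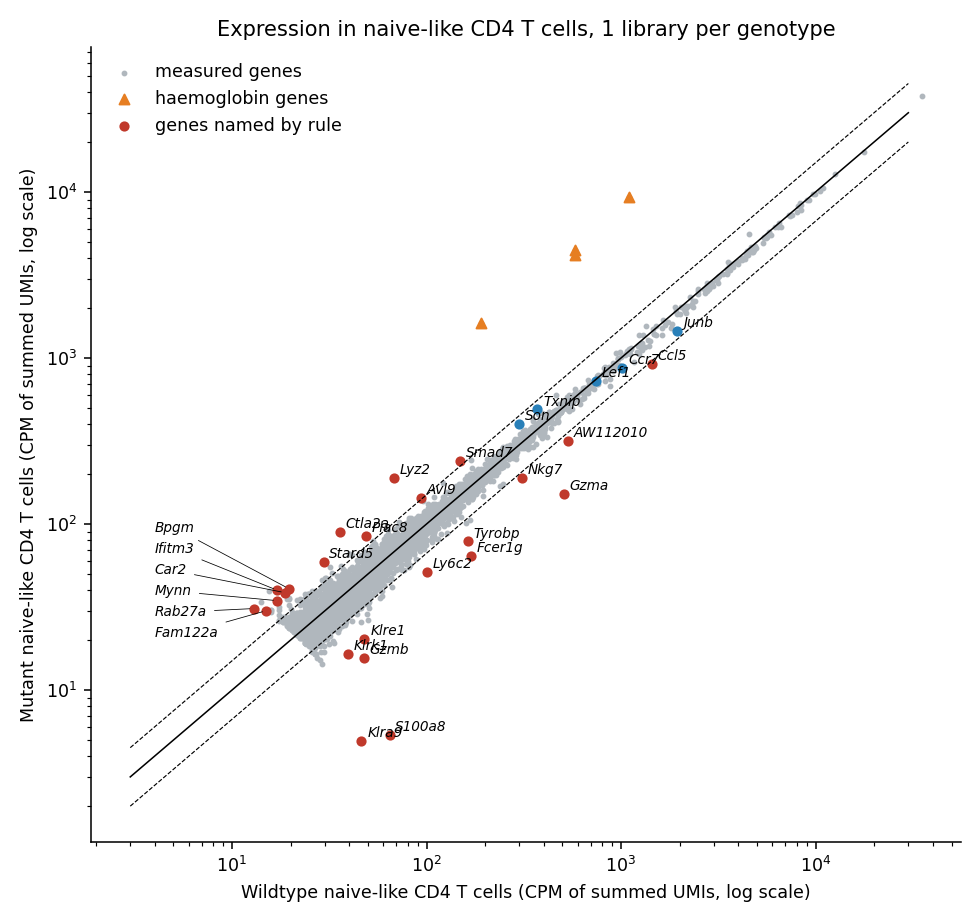
Summed expression of 4370 genes in naive-like CD4 T cells of the wildtype (x axis, CPM, log scale) and the mutant library (y axis, CPM, log scale), 1 point per gene. The solid line marks equal levels and the dashed lines 1.5-fold, red points are genes named by rule, blue points 5 further genes and orange triangles haemoglobin genes, which lie farthest above the line.

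Of the 6 markers of the cell type, none was 1.5-fold apart between the genotypes. Cd3d, a gene of the choice itself, had 2385 mutant UMIs (1071 CPM) and 2581 wildtype UMIs (1075 CPM) (0.996, 0.941 to 1.05), which its use in the choice helps to set. Lef1 had 1627 mutant UMIs (730.3 CPM) and 1778 wildtype UMIs (741 CPM), a ratio of 0.986 (0.921 to 1.06), and Tcf7, its partner factor, 801 mutant and 866 wildtype UMIs (0.997, 0.904 to 1.1). Cd4 had 269 mutant and 332 wildtype UMIs (0.873, 0.741 to 1.03) and Cd40lg 145 mutant and 171 wildtype UMIs (0.914, 0.727 to 1.15), both within counting error. Igfbp4 had 775 mutant UMIs (348 CPM) and 953 wildtype UMIs (397 CPM), and its interval lay below 1 (0.876, 0.796 to 0.964), with a free RNA ratio of 0.686, but in cells with a Cd4 UMI it was at 1.12. Of the naive and quiescence list, 20 of 20 genes were measured and 0 were 1.5-fold apart (median log2 ratio -0.03). Txk, a kinase of the T cell receptor pathway, had the highest ratio (1.11, 1.01 to 1.23) and Ccr7, the lymph node homing receptor, the lowest: 1929 mutant UMIs (866 CPM) and 2432 wildtype UMIs (1013 CPM) (0.855, 0.805 to 0.908). Ccr7 was at 0.954 in CD8 naive-like cells and 1.06 in B cells. Klf2, which drives S1pr1, was slightly lower (5519 mutant and 6487 wildtype UMIs, 0.917, 0.884 to 0.95), as was the antiproliferative gene Btg1 (0.967, 0.938 to 0.996), while S1pr1 (0.974, 0.895 to 1.06), Il7r (0.981, 0.897 to 1.07) and Foxo1 (0.938, 0.792 to 1.11) were not apart beyond counting error.

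Homing and migration genes (18 of 20 measured, 0 of them 1.5-fold apart, median log2 ratio -0.09) lay between Itgb2, the common chain of leukocyte integrins (262 mutant and 354 wildtype UMIs, 0.798, 0.677 to 0.938), and the GTPase Rac2 (1.03, 0.979 to 1.09). T cell receptor signalling genes (23 of 25 measured, 0 apart, median -0.01) lay between the exchange factor Vav1 (0.891, 0.69 to 1.15) and the phospholipase Plcg1 (1.23, 0.824 to 1.85), neither beyond counting error. The co-stimulatory receptor Cd28 had 1554 mutant and 1836 wildtype UMIs (0.912, 0.852 to 0.976; 1.01 after thinning), and the adaptor Lat 1384 mutant and 1484 wildtype UMIs (1.0, 0.933 to 1.08). Helper lineage genes (7 of 10 measured, 0 apart, median -0.10) ran from Cd4 up to Gata3 (1.11, 0.848 to 1.44). The 8 Gimap genes, GTPases that support lymphocyte survival, were spread between Gimap8 (0.82, 0.63 to 1.06) and Gimap7 (1.21, 0.949 to 1.53), with Gimap1 higher (824 mutant and 771 wildtype UMIs, 1.15, 1.04 to 1.27) and Gimap3 lower (788 mutant and 963 wildtype UMIs, 0.882, 0.801 to 0.97).

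Of the cytokine receptor and signalling list, 19 of 24 genes were measured, 2 were at least 1.5-fold higher, 0 lower, and the median log2 ratio was -0.00. Over all 4370 measured genes, 1.24% were higher and 1.10% lower by this fold, and the intervals are not adjusted for that number. The 2 were transcription factors that carry cytokine signals to the nucleus: Stat5b, downstream of interleukin 2 and 7, with 106 mutant and 72 wildtype UMIs (1.59, 1.17 to 2.17), and Stat6, downstream of interleukin 4, with 85 mutant and 59 wildtype UMIs (1.55, 1.1 to 2.2). Ifngr2 had 228 mutant and 174 wildtype UMIs (1.41, 1.15 to 1.73). Lowest was Socs3, an inhibitor of cytokine signalling, with 74 mutant and 113 wildtype UMIs (0.706, 0.519 to 0.954), which was at 0.54 in CD8 naive-like and 0.634 in B cells and at 0.374 in free RNA. In cells with a Cd4 UMI it was at 1.01. The common gamma chain Il2rg had 548 mutant and 693 wildtype UMIs (0.852, 0.76 to 0.954), and Il27ra 82 mutant and 121 wildtype UMIs (0.73, 0.545 to 0.975). Jak1 (1.06, 0.975 to 1.16) did not differ beyond counting error.

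Immediate early genes, which cells switch on within minutes of a stimulus and which also rise during handling, had ratios on both sides of 1 and within 1.5-fold. Of 26 genes 22 were measured, 0 were 1.5-fold apart in either direction, and 8 had a ratio above 1, beside 48.5% of all 4370 genes. An interval below 1 was found for 7 and above 1 for 3, beside 6.91% and 4.65% of all genes, shares that grow with the depth of a gene. The median log2 ratio was -0.16 beside -0.01 over all genes. Junb, a subunit of the transcription factor AP-1 (ENSMUSG00000052837; chr8:84974484-84978718, minus strand, GRCm38), had 3226 mutant UMIs (1448 CPM) and 4657 wildtype UMIs (1939.9 CPM), a ratio of 0.746 (0.713 to 0.781). It was detected in 81.8% of mutant and 88.6% of wildtype cells. Fos, its partner, had 232 mutant UMIs (104 CPM) and 334 wildtype UMIs (139 CPM) (0.748, 0.63 to 0.888), and Dusp1, a phosphatase that shuts off stress kinases, 327 mutant UMIs (147 CPM) and 468 wildtype UMIs (195 CPM) (0.753, 0.652 to 0.869). Jund had 1879 mutant and 2444 wildtype UMIs (0.828, 0.78 to 0.88), Klf6 925 mutant and 1134 wildtype UMIs (0.879, 0.805 to 0.96) and Rgs2 649 mutant and 822 wildtype UMIs (0.851, 0.766 to 0.944). The list did not move as one: Jun, a further AP-1 subunit, was higher with 1044 mutant UMIs (469 CPM) and 947 wildtype UMIs (394 CPM) (1.19, 1.09 to 1.3), as were Btg2 (1.12, 1.02 to 1.23) and Zfp36l2 (1.11, 1.03 to 1.2), and Zfp36 had the highest ratio (72 mutant and 54 wildtype UMIs, 1.44, 0.996 to 2.08).

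The lower Junb was seen in other cells of the same libraries. Its ratio was 0.825 in CD8 naive-like, 0.733 in CD8-negative cells with activation genes, 0.774 in B cells and 0.961 in NK cells, and 0.697 in free RNA. Fos was at 0.689 in CD8 naive-like cells, 0.761 in B cells and 1.07 in free RNA. Per cell, the Jun and Fos family genes together had a median of 5 UMIs in mutant and 6 in wildtype naive-like CD4 T cells, and 3 or more UMIs in 78.5% (76.0 to 80.9) and 86.5% (84.4 to 88.4) of them, or 38.7% and 48.3% after thinning to 800 UMIs. The 10 highest cells held 3.32% and 3.35% of these UMIs, so the difference was spread over the cells. The blood was handled in 1 pool per genotype, and the part of handling in these genes was not tested.

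The 250 bases before the transcription start of Junb, Fos and Dusp1, the 3 measured genes of this list with the lowest ratios, are shown from RefSeq (build GRCm38.p6), with capitals marking the half-site TGACG of the cyclic AMP response element on either strand. Junb lies at chr8:84978749-84978998 (minus strand), Fos at chr12:85473640-85473889 (plus strand) and Dusp1 at chr17:26508473-26508722 (minus strand), and each is written 5' to 3' on the strand of its gene.
Junb: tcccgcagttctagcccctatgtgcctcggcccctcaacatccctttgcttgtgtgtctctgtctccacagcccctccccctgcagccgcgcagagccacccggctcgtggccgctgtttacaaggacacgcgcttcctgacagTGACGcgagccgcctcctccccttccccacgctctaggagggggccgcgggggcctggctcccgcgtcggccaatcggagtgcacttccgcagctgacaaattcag
Fos: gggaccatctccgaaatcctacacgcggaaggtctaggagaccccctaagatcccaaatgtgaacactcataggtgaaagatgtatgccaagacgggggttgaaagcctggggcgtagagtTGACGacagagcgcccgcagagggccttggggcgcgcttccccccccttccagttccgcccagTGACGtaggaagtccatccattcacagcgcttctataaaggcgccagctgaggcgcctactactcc
Dusp1: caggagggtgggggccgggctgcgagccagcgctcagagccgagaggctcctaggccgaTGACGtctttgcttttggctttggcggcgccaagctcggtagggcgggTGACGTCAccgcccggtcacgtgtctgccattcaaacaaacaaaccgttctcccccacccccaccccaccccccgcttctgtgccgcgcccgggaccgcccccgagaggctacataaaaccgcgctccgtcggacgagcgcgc
The Junb window held 1 match and the Fos window 2. The Dusp1 window held 3, of which 2 overlap as the complete palindrome TGACGTCA. Among 32851 promoters of the same length, 17.8% held the half-site and 1.55% the palindrome. Of the 22 measured immediate early genes 18 had an entry, and 8 of these held the half-site and 3 the palindrome: Btg2, Dusp1 and Ppp1r15a, whose ratios were 1.12, 0.753 and 1.01. The palindrome was thus found before genes with ratios on both sides of 1.

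Of 25 chaperone and stress genes 21 were measured, 1 was at least 1.5-fold higher and 0 lower, beside 1.24% and 1.10% of all genes. A ratio above 1 was found for 15 (48.5% of all genes), an interval above 1 for 5 (4.65%) and below 1 for 0 (6.91%), and the median log2 ratio was 0.18. Hsph1, a co-chaperone of the heat shock response (ENSMUSG00000029657; chr5:149614287-149636376, minus strand, GRCm38), had 71 mutant UMIs (31.9 CPM) and 42 wildtype UMIs (17.5 CPM), a ratio of 1.82 (1.23 to 2.74), beside 2.04 in CD8 naive-like cells, 2.09 in B cells and 2.66 in free RNA. Hspa8, the constitutive Hsp70, had 3484 mutant UMIs (1564 CPM) and 3223 wildtype UMIs (1343 CPM) (1.16, 1.11 to 1.22), and its co-chaperone Dnaja1 1021 mutant UMIs (458 CPM) and 903 wildtype UMIs (376 CPM) (1.22, 1.11 to 1.33), with free RNA ratios of 1.01 and 0.943. Hsp90ab1 (1.1, 1.02 to 1.19) and Hsp90aa1 (1.13, 1.01 to 1.27) were slightly higher. Of genes known from the endoplasmic reticulum and its stress response, Hsp90b1 was at 1.16 (0.998 to 1.34), Xbp1 at 1.13 (0.847 to 1.52), Hspa5 at 1.09 (0.978 to 1.23), Calr at 1.05 (0.91 to 1.22), Atf4 at 0.994 (0.807 to 1.22), Pdia3 at 0.89 (0.788 to 1.0) and Herpud1, the lowest of the list, at 0.852 (0.673 to 1.08).

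Of 33 interferon-stimulated genes 23 were measured, with a median log2 ratio of 0.06. Of these, 1 was at least 1.5-fold higher and 0 lower, beside 1.24% and 1.10% of all genes. Ifitm3, a membrane protein that blocks virus entry, had 89 mutant and 41 wildtype UMIs (2.34, 1.6 to 3.47), with 22 of the mutant UMIs in 1 cell, a ratio of 2.12 without the highest cell of each library, and 1.98 in free RNA. Ifi27l2a had 1632 mutant and 1615 wildtype UMIs (1.09, 1.02 to 1.17), Isg15 46 mutant and 57 wildtype UMIs (0.87, 0.577 to 1.31) and Slfn8, the lowest, 53 mutant and 71 wildtype UMIs (0.804, 0.553 to 1.16). Ly6e was slightly lower with 1063 mutant and 1302 wildtype UMIs (0.88, 0.811 to 0.955). Cells with 3 or more UMIs of the core interferon genes made up 1.88% of the mutant (1.17 to 2.86) and 1.9% of the wildtype cells (1.2 to 2.86), with overlapping intervals.

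Genes of the mevalonate and sterol pathway were scarce in these resting cells. Mvk (ENSMUSG00000041939; chr5:114444269-114460591, plus strand, GRCm38) had 12 mutant UMIs (5.39 CPM) and 20 wildtype UMIs (8.33 CPM), a ratio of 0.647 (0.288 to 1.39). A difference was not detectable at this depth. A 3' count does not read the altered residue or say which allele a molecule came from. Of the list of 26, 4 genes were measured and 0 were 1.5-fold apart. Srebf2, the master regulator of sterol genes, had 82 mutant and 63 wildtype UMIs (1.4, 0.998 to 1.98), and Insig1 77 mutant and 65 wildtype UMIs (1.28, 0.906 to 1.8). Fdps, which makes farnesyl pyrophosphate, had 73 mutant and 66 wildtype UMIs (1.19, 0.843 to 1.69), and Ebp 101 mutant and 119 wildtype UMIs (0.915, 0.694 to 1.2). Over the whole list the sum was 829 mutant and 854 wildtype UMIs, 372 and 356 CPM, a ratio of 1.05 (0.95 to 1.15).

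Prenylation enzymes and the small GTPases they modify (22 of 33 measured) had 0 genes 1.5-fold apart and a median log2 ratio of -0.00, beside -0.01 over all genes. Rhoa had 807 mutant UMIs (362 CPM) and 752 wildtype UMIs (313 CPM) (1.16, 1.05 to 1.28), Rac2 2577 mutant and 2686 wildtype UMIs (1.03, 0.979 to 1.09), Cdc42 1087 mutant and 1138 wildtype UMIs (1.03, 0.946 to 1.12) and Arhgdib, an inhibitor of GDP release from small GTPases, 2324 mutant and 2512 wildtype UMIs (0.997, 0.942 to 1.06). Rab11a was highest (1.18, 0.952 to 1.47) and Rab5c lowest (156 mutant and 223 wildtype UMIs, 0.754, 0.61 to 0.929), followed by Rala (148 mutant and 208 wildtype UMIs, 0.767, 0.617 to 0.951). Ggps1, which makes the geranylgeranyl group, was at 1.1 (0.752 to 1.6).

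Of the survival and death list (10 of 17 measured, 0 apart, median -0.00), Pdcd4, a translation inhibitor, was higher with 1326 mutant UMIs (595 CPM) and 1111 wildtype UMIs (463 CPM) (1.29, 1.19 to 1.39), as was Bbc3, the death activator PUMA, with 235 mutant and 196 wildtype UMIs (1.29, 1.06 to 1.57). Bbc3 was at 1.37 in CD8 naive-like and 1.41 in B cells. Bcl2 (1.03, 0.949 to 1.11), Mcl1 (0.944, 0.796 to 1.12) and Bcl2l11 (0.832, 0.623 to 1.11) were not apart beyond counting error. Of the inflammasome and interleukin 1 list 3 of 13 genes were measured, Pycard (0.899, 0.788 to 1.03), Gsdmd (0.785, 0.536 to 1.14) and Il18r1 (1.02, 0.70 to 1.5), none of them apart. Ribosomal protein genes (98 measured, 0 apart) had a median log2 ratio of -0.07, mitochondrial genes -0.08, and nuclear genes of oxidative phosphorylation (72 of 88 measured, 0 apart) 0.06. An interval below 1 was found for 70 of the ribosomal protein genes, beside 6.91% of all genes, a share that grows with the depth of a gene.

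**Figure D4:**
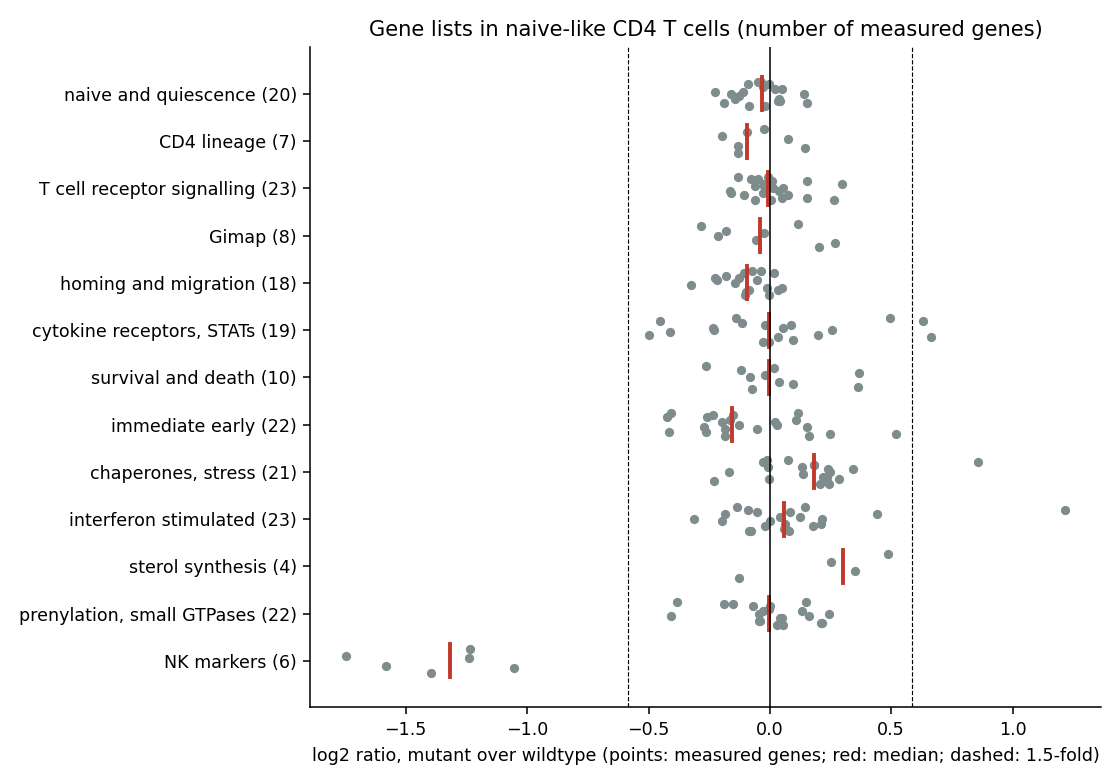
log2 ratio of mutant over wildtype CPM (x axis) of the measured genes (grey points) of 13 gene lists (y axis, with the number of measured genes), with the list median in red and 1.5-fold dashed. The measured NK markers lie below the 1.5-fold line, several of them measured mainly through their wildtype UMIs. Most other lists center near 0, with immediate early genes at -0.16 and chaperones at 0.18.

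Among the 12 higher genes named by rule, several were also higher in free RNA or rested on few cells. Lyz2, the lysozyme gene of monocytes, had 420 mutant and 163 wildtype UMIs (2.78, 2.31 to 3.35), of which 182 mutant UMIs were in 1 cell. Without the highest cell of each library it was at 1.86, and the summed monocyte list stood at 411 and 245 CPM. Ctla2a, a cysteine protease inhibitor, had 199 mutant and 86 wildtype UMIs (2.49, 1.93 to 3.25), detected in 13.5% and 6.14% of cells with at most 6 UMIs in any, beside 359 and 195 CPM of free RNA. Bpgm and Car2, genes of red cells, were at 2.09 (1.45 to 3.03) and 2.06 (1.42 to 3.02). Without cells of 20 or more haemoglobin UMIs they were at 1.2 and 0.676, so the direction of Car2 rested on those cells. With a Cd4 UMI required Car2 was at 0.283.

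Other higher genes were spread over many cells. Smad7, an inhibitor of TGF-beta signalling, had 535 mutant UMIs (240.1 CPM) and 358 wildtype UMIs (149 CPM), a ratio of 1.61 (1.41 to 1.85). It was detected in 35.7% of the mutant (32.9 to 38.6) and 25.8% of the wildtype cells (23.3 to 28.4), with at most 7 UMIs in any. Its ratio was 1.31 in CD8 naive-like, 1.0 in B cells and 1.14 in free RNA, and stayed between 1.55 and 1.82 over 11 other settings. Avl9 had 318 mutant and 225 wildtype UMIs (1.52, 1.28 to 1.81; 1.06 in free RNA). Stard5, a lipid transfer protein gene, had 132 mutant and 71 wildtype UMIs (2.0, 1.49 to 2.71), beside 0.953 in free RNA, 1.49 in CD8 naive-like and 0.886 in B cells. Rab27a, a GTPase of vesicle secretion (69 mutant and 31 wildtype UMIs, 2.4, 1.55 to 3.79), the zinc finger gene Mynn (77 mutant and 41 wildtype UMIs, 2.02, 1.37 to 3.03) and Fam122a (67 mutant and 36 wildtype UMIs, 2.01, 1.32 to 3.1) had at most 2 UMIs in any cell, and Plac8 had 188 mutant and 117 wildtype UMIs (1.73, 1.37 to 2.2). Rab27a, Mynn and Fam122a, like Hsph1 and Ifitm3 above, reached the minimum of 100 UMIs in both libraries together mainly through their mutant UMIs. Their place among the higher genes is thus partly set by this minimum. The intervals are not adjusted for the 4370 genes from which the named genes were taken.

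Of the 12 lower genes named by rule, 6 were on the NK marker list. Gzma, the protease granzyme A, had 338 mutant UMIs (152 CPM) and 1222 wildtype UMIs (509 CPM) (0.298, 0.263 to 0.336), Gzmb 35 mutant and 114 wildtype UMIs (0.331, 0.22 to 0.487), and the receptor genes Klre1 45 mutant and 115 wildtype UMIs (0.422, 0.292 to 0.60) and Klrk1 37 mutant and 95 wildtype UMIs (0.42, 0.279 to 0.62). The signalling adaptors Fcer1g and Tyrobp were at 0.38 (0.311 to 0.46) and 0.481 (0.40 to 0.576). In free RNA the ratios were 0.208 for Gzma, 0.224 for Gzmb, 0.267 for Klre1, 0.325 for Klrk1, 0.455 for Fcer1g and 0.553 for Tyrobp, and in B cells Gzma was at 0.273. All 6 measured genes of the 10 NK markers were 1.5-fold lower, beside 1.10% of all measured genes. The UMI minimum applied to both libraries together, and Gzmb, Klre1 and Klrk1 reached it mainly through their wildtype UMIs. The agreement of the 6 is thus partly set by this minimum. The list summed to 379 mutant and 1081 wildtype CPM, with 1.88% and 10.1% of cells holding 3 or more of these UMIs (1.07% and 3.80% after thinning). The 10 highest cells held 54.7% and 30.3% of the NK UMIs, and without the highest cell of each library Gzmb was at 0.216 and Gzma at 0.21. In cells with a Cd4 UMI the direction of 2 of these genes turned, with Gzmb at 1.05 and Klre1 at 1.04, on few UMIs. The part of free NK cell RNA in the result was not tested.

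Ccl5, a chemokine of effector T and NK cells, had 2048 mutant UMIs (919 CPM) and 3461 wildtype UMIs (1442 CPM) (0.638, 0.603 to 0.674), Nkg7 424 mutant and 741 wildtype UMIs (0.617, 0.546 to 0.696) and AW112010 705 mutant and 1279 wildtype UMIs (0.594, 0.541 to 0.652). Free RNA held them at 1826 and 5767 CPM, 536 and 1225 CPM and 609 and 1654 CPM. After free RNA was subtracted, the ratios were 0.735, 0.673 and 0.645, and that of Gzma 0.335. Nkg7 was at 0.945 in CD8 naive-like cells, which express it. Of the CD8 markers 6 of 9 were measured and 3 were 1.5-fold lower (Ccl5, Ly6c2 and Nkg7), with a list sum of 1789 and 2533 CPM. Of the innate-like T cell markers 5 of 10 were measured and 4 were 1.5-fold lower (Fcer1g, Id2, Ly6c2 and Tyrobp). Over all measured genes 1.10% were lower by this fold. Fcer1g and Tyrobp are also on the NK list and Ly6c2 on the CD8 list, so Id2 alone is added by this list. Ly6c2 had 114 mutant and 241 wildtype UMIs (0.51, 0.404 to 0.64; 0.983 in CD8 naive-like cells) and the Ly49 receptor Klra9 11 mutant and 111 wildtype UMIs (0.107, 0.0518 to 0.199; 0.128 in free RNA). The members of the Klra and Ly6c families share sequence, and their split of reads is uncertain. S100a8, a neutrophil gene, had 12 mutant and 155 wildtype UMIs (0.0834, 0.0422 to 0.15), 141 of them in 1 wildtype cell. Without the highest cell of each library S100a8 was at 0.77. Klra9 and S100a8 reached the minimum of 100 UMIs in both libraries together mainly through their wildtype UMIs. Their place among the lower genes is thus partly set by this minimum.

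**Figure D5:**
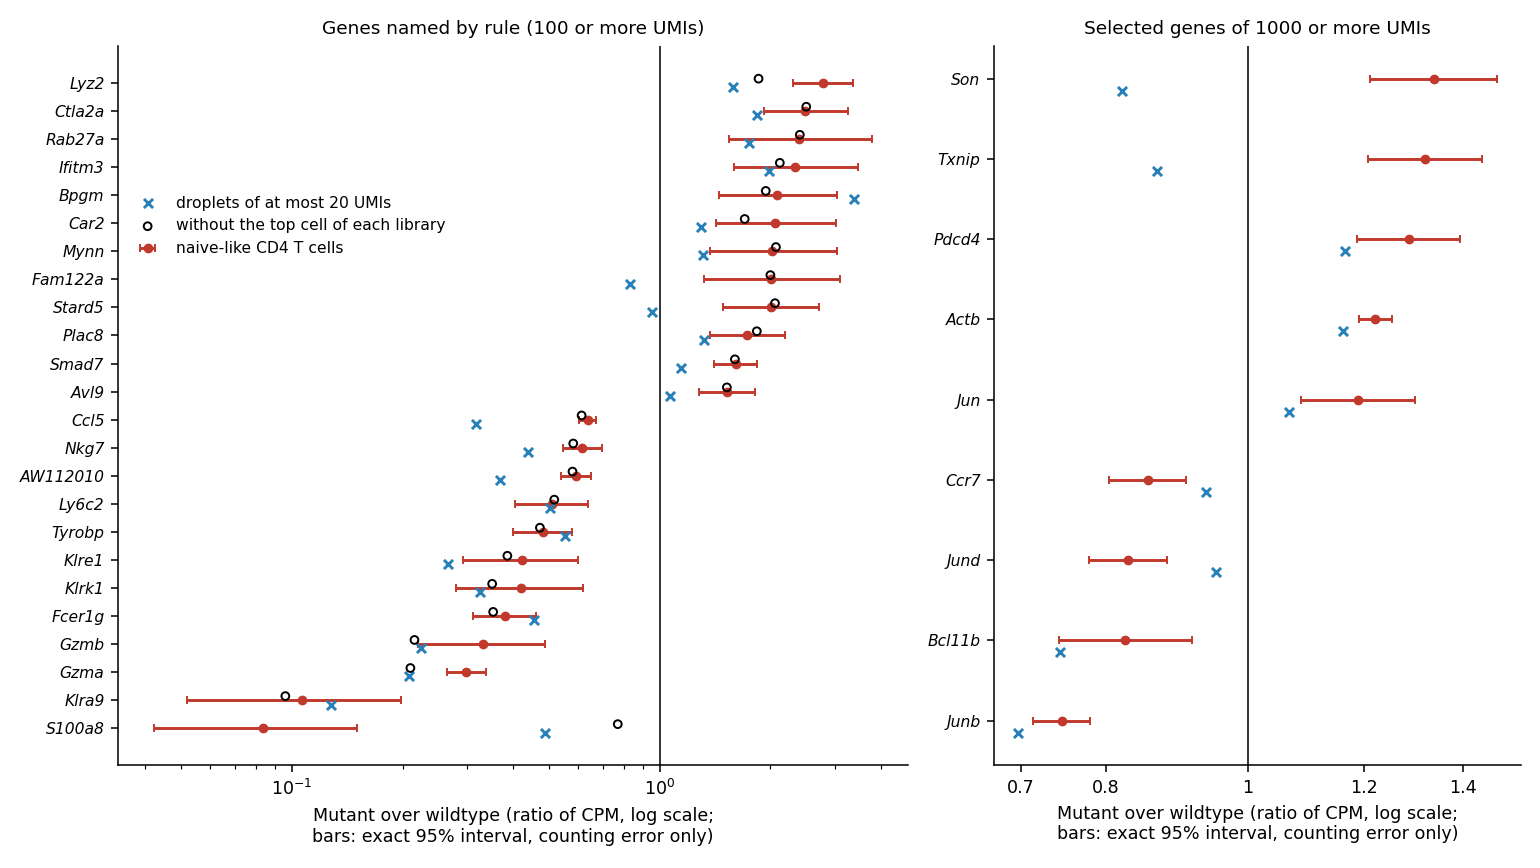
Mutant over wildtype ratio of CPM (x axis, log scale) of the 24 genes named by rule (left) and of 9 genes with 1000 or more UMIs (right) in naive-like CD4 T cells (red, exact 95% intervals, counting error only), in droplets of at most 20 UMIs (blue crosses) and, at left, without the highest cell of each library (open circles). NK genes lie below 1 in cells and droplets alike, whereas Son and Txnip lie above 1 in cells and below 1 in droplets.

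The 4 measured haemoglobin genes were 7.23-fold to 8.55-fold higher in the mutant cells. These folds moved with the choice of cells: with 3 or more Cd3 UMIs required they ran from 46.5-fold to 86.5-fold, with activation and memory genes at 0 from 5.48-fold to 6.61-fold, and without cells of 20 or more haemoglobin UMIs from 10-fold to 11.8-fold. A haemoglobin UMI was common among them (Hba-a1 in 53.1% and 7.35%), as it was in B cells (52.4% and 5.24%), and free RNA held the red cell list at 50647 and 3576 CPM. Platelet markers summed to 86.2 and 20.4 CPM (192 and 49 UMIs, 0 of 8 genes measured). B cell markers, 3 of whose 12 genes the choice of cells had used, so that no count of them is given, summed to 856 and 649 CPM, beside 14962 and 11206 CPM in free RNA. Of the regulatory and activated markers 5 of 11 were measured and 0 were 1.5-fold apart. The part of free RNA from other cells in these values was not tested.

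Among genes of 1000 or more UMIs other than the 4 haemoglobin genes and Gzma, Ccl5, Nkg7 and AW112010, no ratio reached 1.5-fold. Son, a splicing cofactor of nuclear speckles, had 895 mutant UMIs (402 CPM) and 721 wildtype UMIs (300.3 CPM) (1.34, 1.21 to 1.48), and Txnip, which restrains glucose uptake, 1092 mutant UMIs (490.1 CPM) and 892 wildtype UMIs (372 CPM) (1.32, 1.21 to 1.44), with free RNA ratios of 0.821 and 0.866. Son was at 1.23 in CD8 naive-like and 0.998 in B cells, and Txnip at 1.15 and 1.05. Srrm2 was at 1.21 (1.1 to 1.33) and Sf3b2 at 1.21 (1.07 to 1.37). Also higher were Actb (12399 mutant and 10949 wildtype UMIs, 1.22, 1.19 to 1.25), the nucleolar protein gene Ncl (1.18, 1.07 to 1.3), Nme1 (1.17, 1.05 to 1.31) and Dynll1 (1.16, 1.04 to 1.28; 0.845 in cells with a Cd4 UMI). On the lower side stood Bcl11b, a factor that fixes T cell identity, with 647 mutant UMIs (290.4 CPM) and 845 wildtype UMIs (352 CPM) (0.825, 0.744 to 0.915; 0.833 in CD8 naive-like cells, 0.744 in free RNA), the cold-inducible RNA binding gene Cirbp (676 mutant and 878 wildtype UMIs, 0.83, 0.749 to 0.918), Ms4a4b (3365 mutant and 4336 wildtype UMIs, 0.836, 0.799 to 0.875; 0.658 in free RNA), H2-Q7 (0.841, 0.762 to 0.927) and Lgals1 (0.848, 0.763 to 0.943). Whether mice differ among themselves by as much cannot be read from 1 pool per genotype.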

How the data were processed

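Single-cell RNA sequencing of blood mononuclear cells was analysed from 1 library of MvkV377I/del91 and 1 of wildtype mice. The authors deposited UMI counts per gene and barcode, made with Cell Ranger 2.1.1 and build mm10 per the submitters' processing notes. The unfiltered barcodes were used, and no cell annotation was used. The members, the 23 gene lists and the tests were chosen with earlier results of these data known. Cells were grouped by raw UMIs of the rule's genes, without clustering. UMIs were summed over the cells of a group and given as CPM. Genotypes were compared by the ratio of CPM with its exact conditional 95% interval, for genes of 100 or more UMIs in both libraries together, a gene being counted as apart at 1.5-fold. Cell groups were compared with edgeR 4.0.16 (quasi-likelihood test, Benjamini-Hochberg adjustment, 2-fold) in R 4.3.3, and with DESeq2 1.42.0 as an alternative. The fit and the intervals were tested on simulated data.

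Between genotypes, 12 genes in each direction were named by how far the nearer bound of their interval lay from 1. Among genes of 1000 or more UMIs, the 12 highest and 12 lowest were taken by the ratio itself, a choice added after seeing the data. Against other cell groups the 10 highest and 10 lowest by fold were named. In each of these choices, ribosomal, mitochondrial, haemoglobin and provisionally named genes and genes of the rule were left out. Of each list the highest, the lowest and the 2 most abundant genes were named, and further list members were named after their values were seen. Doublets were not removed. Scrublet (scanpy 1.11.5), at a score of 0.2, would have removed 69 mutant and 133 wildtype cells, 3 and 8 of them naive-like CD4 T cells. Gene positions are from the GENCODE annotation of GRCm38, and promoter sequences from RefSeq (GRCm38.p6). Alternatives changed the cell filters, the rule, the depth, the scaling, the gene minimum and the tool.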

Additional observations from a re-analysis of the deposited data

How the results depend on the processing

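With 1 library per genotype no library could be left out. No paired analysis was possible because each genotype has 1 library. The ratio of the shares of naive-like CD4 T cells (1.2) was 1.04 with a Cd4 UMI required, 1.35 with the activation and memory genes at 0, 1.08 after thinning and, an alternative chosen after seeing the data, 1.09 without NK cells. The 54 higher and 48 lower genes of the mutant cells became 21 and 18 with a Cd4 UMI required, 23 and 26 after thinning, 168 and 163 at a gene minimum of 50 UMIs, 14 and 12 at 200, and 1280 and 1293 with only 1 UMI needed in each library. The first 2 settings leave fewer UMIs and so fewer measured genes, and low gene minimums admit genes of few counts. Other cell filters, scalings and the subtraction of free RNA left these counts within 1.5 times, but not the same genes: 24 of 41 higher and 15 of 40 lower genes were shared with the first count when activation and memory genes were at 0, and 35 of 46 and 26 of 45 with 3 or more Cd3 UMIs. With a Cd4 UMI 5 of 21 and 6 of 18 were shared, and after thinning 10 of 23 and 9 of 26. Against CD8 naive-like cells, 130 higher and 116 lower genes became 34 and 40 with DESeq2 and 50 and 66 after thinning, and the higher count 85 with no library term. Against CD8-negative cells with activation genes, 39 higher and 298 lower became 12 and 181 with DESeq2, the higher count 74 with no filter, and the lower count 68 after thinning. Why DESeq2 called fewer was not tested. Direction was reversed for Car2 (0.283 with a Cd4 UMI, 0.676 without cells rich in haemoglobin, 0.981 after thinning), Gzmb (1.05 with a Cd4 UMI) and Klre1 (1.04 with a Cd4 UMI), the 3 of the 33 followed genes at 1.5-fold that did so. Of 91 genes with an interval off 1, 9 crossed 1 under at least 1 setting (Car2, Cd28, Dynll1, Gzmb, H2-Ab1, Igfbp4, Klre1, S100a6 and Socs3), and of all 248 genes followed 98, most of them with an interval that spans 1. Of the values of named genes and lists under the alternatives listed at the start, 2329 moved by less than their interval, 144 by more and 4 reversed. Genes under 100 UMIs, which include Mvk and 22 of 26 sterol genes, are too shallow here to be counted in either direction.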

Other observations

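A Cd4 UMI was seen in 236 mutant and 283 wildtype naive-like CD4 T cells and none in 881 and 874. Cd40lg, which did not take part in this division, stood at 73.5 and 80.8 CPM in mutant and wildtype cells with a Cd4 UMI and at 62.8 and 68 CPM in those without. Igfbp4 stood at 418 and 374 CPM with a Cd4 UMI, against 329 and 405 CPM without, and Lef1 at 773 and 729 CPM, against 719 and 745 CPM. Zbtb7b stood at 18.9 and 24.7 CPM, against 18.8 and 15 CPM. These values rest on 42 Zbtb7b UMIs in each library over both sides, without an interval, and no direction is read from them. Of 4 CD8 T cell markers read the same way, 3 were lower in the cells with a Cd4 UMI in both libraries: Nkg7 at 98.7 and 193 against 215 and 348 CPM, Ctsw at 37.8 and 57.7 against 57.1 and 83.6 CPM and Ly6c2 at 27.3 and 52.8 against 57.7 and 116 CPM. Dapl1 was not, at 517 and 470.1 against 481 and 484 CPM. Junb was lower in the mutant library on both sides of the division (1411 and 1937 CPM with, 1458 and 1941 CPM without). For Ccr7 the values were 966 and 1026 CPM with a Cd4 UMI, the smaller gap, and 839 and 1009 CPM without. No interval was computed for the values of this division, so whether Ccr7 differed beyond counting error on each side was not tested.

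The share of cells with a Cd4 UMI was also read by depth. In the mutant library it was 13% of 162 cells of 800 to 1500 UMIs, 22.7% of 462 of 1500 to 2000, 23% of 466 of 2000 to 3000 and 11.1% of 27 above 3000. In the wildtype library it was 18.3% of 131, 25.1% of 419, 24.7% of 559 and 33.3% of 48 cells.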
